A study of Rattus norvegicus with 24 samples.

Results

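The slow-type and fast-type genes of the troponin complex and of the sarcoplasmic reticulum calcium store were followed through 24 rat quadriceps libraries. The set was defined by gene name as Tnni1, Tnnt1, Tnnc1, Atp2a2 and Casq2 on the slow side and Tnni2, Tnnt3, Tnnc2, Atp2a1 and Casq1 on the fast side, 10 genes in all. The deposited table lists 9 of them by name among its 21067 genes, 5 slow and 4 fast, and all 9 passed the filter on low values. The table has no row named Atp2a1.

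RNA came from the quadriceps femoris, the large extensor muscle of the thigh, of young Sprague-Dawley rats of both sexes, with 6 rats and 6 libraries in each of 4 groups. All rats had a short habituation to the treadmill, after which the control group was not trained. The treadmill group trained for weeks at rising speeds and then ran to exhaustion. Catgut group 1 had an absorbable thread embedded at 6 acupoints (Bai Hui, Qiang Feng, Qian Shen, Yang Wa, Han Gou and Xie Qi) before the same training and exhaustion run, and catgut group 2 had the thread at those points plus Fei Shu. No group had catgut without training, so the contrast of either catgut group with the control group holds training and catgut together. The methods describe no sham embedding, so either catgut group against treadmill holds anaesthesia, needle and thread together. Several of the points lie in the thigh, the region that was sampled. The study's methods name the quadriceps as the source of the RNA without saying which of its heads or which depth was cut. The labels give no sex for any library.

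Troponin is the calcium switch of the thin filament. Troponin C binds calcium, troponin I holds back the interaction of actin with myosin until calcium is bound, and troponin T ties the complex to tropomyosin. Slow and fast fibres use separate genes for each subunit, and the slow troponin C gene, Tnnc1, also serves the heart. Between contractions, ATP-driven pumps return calcium to the sarcoplasmic reticulum, where calsequestrin binds it. Atp2a2 encodes the pump of slow fibres and heart, Atp2a1 the pump of fast fibres, Casq2 the calsequestrin of heart and slow fibres, and Casq1 the main calsequestrin of skeletal muscle.

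The total count per library ran from 45945938 to 78278080, and 0 libraries held the values of another. Of 7 skeletal muscle markers, 5 were listed, and their summed level was 44910 to 66489 FPKM (FPKM scales fragments by transcript length and library size, so that levels of different genes can be compared). The summed level of 4 listed cardiac markers was 0.00751 to 34.1 FPKM, with Myh6 alone at up to 34.1 FPKM, and the cardiac troponin I gene Tnni3 was listed at 0 in 20 of 24 libraries. Albumin (Alb), a liver gene, reached 135 FPKM in control replicate 2 and 226 FPKM in treadmill replicate 3. The Y-linked gene Eif2s3y was at 1 FPKM or more in 3 control, 3 treadmill, 3 catgut 1 and 2 catgut 2 libraries. The study's methods state equal numbers of male and female rats in each group, from which the catgut 2 count departs.

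Sequence before the gene start was matched for 8 of the 10 genes, all but Tnnt3 and Tnnc1, from RefSeq on the GRCr8 build. The 250 bases upstream of the start are shown for 4 slow genes whose levels moved together across libraries and for 1 fast gene that stayed high in every library. They lie at chr13:49781279-49781528 for Tnni1, chr1:78348785-78349034 for Tnnt1, chr12:39733269-39733518 for Atp2a2, chr2:192214306-192214555 for Casq2 and chr1:207024240-207024489 for Tnni2, all on the plus strand and written 5′ to 3′. Capitals mark matches to the E-box CANNTG, the letters that the MyoD family of muscle factors binds, and in Casq2 also a match to the MEF2 consensus.
Tnni1: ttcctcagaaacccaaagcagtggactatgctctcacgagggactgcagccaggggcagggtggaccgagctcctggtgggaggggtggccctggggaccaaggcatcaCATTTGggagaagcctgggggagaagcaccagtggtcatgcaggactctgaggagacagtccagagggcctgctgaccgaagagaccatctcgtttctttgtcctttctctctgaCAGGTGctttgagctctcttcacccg
Tnnt1: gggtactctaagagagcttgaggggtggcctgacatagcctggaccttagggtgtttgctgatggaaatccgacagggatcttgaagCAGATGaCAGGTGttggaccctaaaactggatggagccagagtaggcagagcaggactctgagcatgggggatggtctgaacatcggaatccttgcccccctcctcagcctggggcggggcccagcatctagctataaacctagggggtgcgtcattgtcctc
Atp2a2: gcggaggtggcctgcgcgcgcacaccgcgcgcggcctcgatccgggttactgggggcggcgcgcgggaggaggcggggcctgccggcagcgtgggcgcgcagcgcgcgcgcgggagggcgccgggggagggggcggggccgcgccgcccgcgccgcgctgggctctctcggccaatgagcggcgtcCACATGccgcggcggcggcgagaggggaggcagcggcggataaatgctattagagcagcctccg
Casq2: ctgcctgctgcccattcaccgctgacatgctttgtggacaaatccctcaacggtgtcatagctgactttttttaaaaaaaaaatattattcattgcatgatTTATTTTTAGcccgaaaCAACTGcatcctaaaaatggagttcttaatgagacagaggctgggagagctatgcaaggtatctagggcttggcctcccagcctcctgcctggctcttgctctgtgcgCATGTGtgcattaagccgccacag
Tnni2: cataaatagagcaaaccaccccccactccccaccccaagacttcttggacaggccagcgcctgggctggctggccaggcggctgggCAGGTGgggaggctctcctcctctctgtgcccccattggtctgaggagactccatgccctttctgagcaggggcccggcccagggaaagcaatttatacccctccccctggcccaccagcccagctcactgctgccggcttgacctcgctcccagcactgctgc

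All 8 matched windows held at least 1 E-box, as did 65.5% of 33469 rat promoter windows of the same length. The MEF2 consensus was found in 1 of the 8, at -149 in Casq2, and in 2.96% of all windows. TATAAA was found in Tnnt1 at -30 and in Tnni2 at -72, against 12.9% of all windows, and CACCC in 6 of the 8, against 49.2%. CATTCC, the core of the MCAT element, was found in 0 of the 8 and in 12.1% of all windows. Both strands were searched, positions count from the gene start, and a match is only a description of the letters. In base composition Atp2a2 stood apart, with a GC content of 80.0% and 45 CpG dinucleotides, whereas the other 7 windows had 46.4 to 65.2% GC and 2 to 5 CpG and the median of all windows was 51.2% and 5.

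Among the troponin I genes, the slow form varied over 3 orders of magnitude between rats and the fast form hardly varied. Tnni1 (ENSRNOG00000009073, chromosome 13, 52624878 to 52637297, in the coordinates of the table, whose build is not given in the sources used here) was 0.373 to 122 FPKM in the control group with a median of 12.7, 0.553 to 222 in the treadmill group with a median of 70.4, 0.671 to 262 in catgut group 1 with a median of 140, and 36.0 to 374 in catgut group 2 with a median of 102. The 4 groups overlapped, and the low end was missing in catgut group 2. Below 10 FPKM lay 3 control, 2 treadmill, 2 catgut 1 and 0 catgut 2 libraries. Tnni2 (ENSRNOG00000020276, chromosome 1, 215609036 to 215611658) was 3215 to 4230 FPKM in the control group with a median of 3656, 3297 to 4131 in the treadmill group with a median of 3625, 3068 to 4402 in catgut group 1 with a median of 3496, and 3102 to 3802 in catgut group 2 with a median of 3326. Its highest library was 1.43 times its lowest over all 24, against 1003 times for Tnni1.

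The troponin T genes behaved in the same manner. Tnnt1 (ENSRNOG00000028041, chromosome 1, 72889270 to 72899659), the slow form, was 0.754 to 299.6 FPKM in the control group with a median of 18.7, 0.248 to 293 in the treadmill group with a median of 103, 0.570 to 529 in catgut group 1 with a median of 205, and 49.0 to 726 in catgut group 2 with a median of 177. Its lowest library, treadmill replicate 2, held 16 counts of Tnnt1, so this end of the range is poorly measured, and the highest library was 2928 times higher. Tnnt3 (ENSRNOG00000020332, chromosome 1, 215666628 to 215683628), the fast form, was 15403 to 19165 FPKM in the control group with a median of 18377, 14047 to 18988 in the treadmill group with a median of 16874, 12186 to 18190 in catgut group 1 with a median of 14504, and 10937 to 16515 in catgut group 2 with a median of 13246. It had the highest level of the 9 genes and ranked 7 of 10475 genes by mean FPKM. In catgut group 2, 5 of 6 libraries were below the lowest control library.

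For troponin C, the slow and cardiac form Tnnc1 (ENSRNOG00000018943, chromosome 16, 7292096 to 7295465) was 0.367 to 177 FPKM in the control group with a median of 14.3, 0.548 to 214 in the treadmill group with a median of 105, 1.58 to 370.1 in catgut group 1 with a median of 197, and 52.6 to 576 in catgut group 2 with a median of 164. The same libraries were low as for Tnni1. The fast form Tnnc2 (ENSRNOG00000015155, chromosome 3, 161243587 to 161246351) was 10981 to 14587 FPKM in the control group with a median of 11986, 10265 to 13661 in the treadmill group with a median of 11717, 9584 to 12225 in catgut group 1 with a median of 11168, and 9310 to 11572 in catgut group 2 with a median of 10959. Its group ranges overlapped, with 4 catgut 2 libraries below every control library.

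The slow pump and calsequestrin varied less than the slow troponins. Atp2a2 (ENSRNOG00000001285, chromosome 12, 39553903 to 39603326) was 6.98 to 67.9 FPKM in the control group with a median of 13.7, 9.68 to 73.1 in the treadmill group with a median of 35.4, 7.32 to 151 in catgut group 1 with a median of 55.7, and 20.2 to 179.6 in catgut group 2 with a median of 55.6. Casq2 (ENSRNOG00000016243, chromosome 2, 204512302 to 204568656) was 0.755 to 7.38 FPKM in the control group with a median of 2.60, 2.06 to 12.2 in the treadmill group with a median of 5.77, 1.27 to 18.2 in catgut group 1 with a median of 7.72, and 3.97 to 23.8 in catgut group 2 with a median of 10.9. The highest library was 25.7 times the lowest for Atp2a2 and 31.5 times for Casq2. Casq1 (ENSRNOG00000006930, chromosome 13, 90592681 to 90602365) was 1306 to 2119 FPKM in the control group with a median of 1625, 1015 to 2080 in the treadmill group with a median of 1573, 875 to 1617 in catgut group 1 with a median of 1341, and 837 to 1671 in catgut group 2 with a median of 1222. It was the most variable of the 4 fast genes, with its highest library 2.53 times its lowest.

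**Figure D1:**
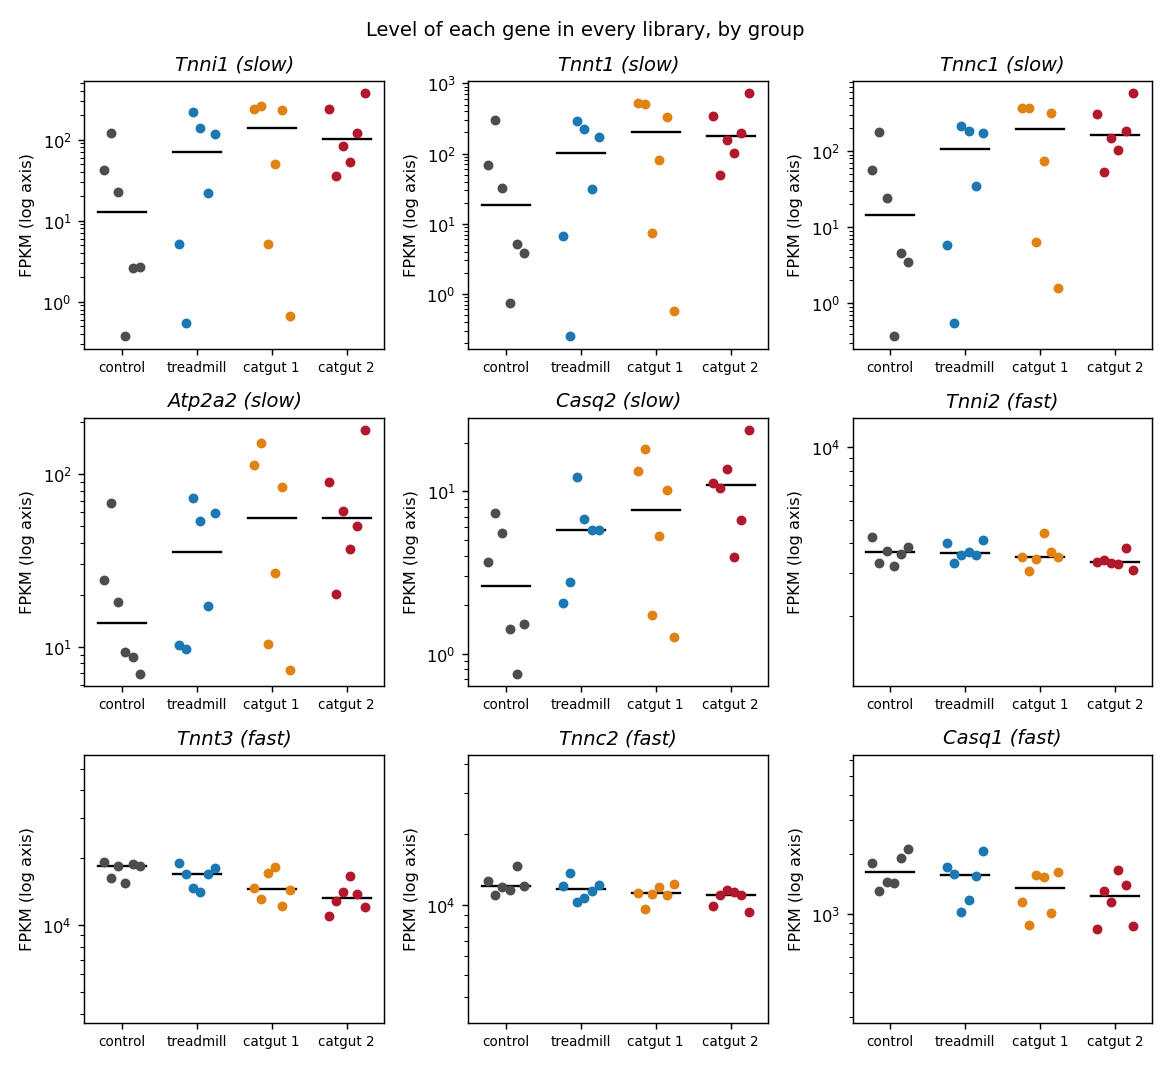
FPKM of 5 slow and 4 fast genes on log axes in every library (points, by replicate number from left to right) of the 4 groups, with the group median as a bar. The slow genes spread over up to 3 orders of magnitude within the control, treadmill and catgut 1 groups, while each fast gene stays within 2.53-fold over all libraries, and the axis span differs between panels.

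The row ENSRNOG00000047124 (chromosome 1, 197856903 to 197858016, minus strand) lies between Rabep2 and Sh2b1, the neighbours of Atp2a1 in GRCr8, and its deposited annotation names calcium-transporting ATPase activity and fast-twitch contraction. It was not counted among the 9 listed genes, and it is given here under its own identifier. It was 10322 to 14349 FPKM in the control group with a median of 11701, 11876 to 13657 in the treadmill group with a median of 13235, 9292 to 15041 in catgut group 1 with a median of 12527, and 10132 to 12655 in catgut group 2 with a median of 10899. Its row spans 1114 bases, much less than a whole pump gene, so its FPKM may not be on the same footing as that of Atp2a2.

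The spread of the slow genes between rats was among the largest in the muscle. The SD of log2(FPKM + 1) within groups was 2.82 for Tnnt1, 2.59 for Tnnc1 and 2.54 for Tnni1, which ranked 4, 6 and 8 of 10475 genes with a mean of at least 1 FPKM. It was 1.35 for Atp2a2, at rank 104, and 0.955 for Casq2, at rank 233. The fast genes lay at rank 1999 (Casq1), 6959 (Tnnt3), 9236 (Tnni2) and 9295 (Tnnc2), and the median gene had an SD of 0.224. This spread enters the error of every group comparison of the slow genes.

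Across the 24 libraries the 5 slow genes moved together. Over the 10 slow pairs, Pearson's r of log2(FPKM + 1) was 0.880 to 0.996 and Spearman's rho 0.874 to 0.997. Each r had a permutation p of 1e-05, the smallest that 100000 resamples can give. It is unadjusted over the 36 pairs of the 9 genes and over further pairs computed with other genes. Without the 2 libraries farthest from the median, r was 0.882 to 0.996. With the group means removed it was 0.849 to 0.997, so the relation was present among rats of the same group. The 3 slow troponins were the closest, with r = 0.996 for Tnni1 with Tnnt1 and with Tnnc1, and Casq2 was the loosest.

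The 4 fast genes were positively related in all 6 pairs, with r from 0.429 for Tnni2 with Tnnc2 (permutation p = 0.0366) to 0.860 for Tnnt3 with Casq1 (permutation p = 1e-05). Slow and fast genes ran in opposite directions. All 20 slow-fast pairs had a negative r, from -0.81 for Casq2 with Casq1 to -0.06 for Tnni1 with Tnni2, and 15 of the 20 had a permutation p under 0.05. The 5 that did not were the pairs with Tnni2. The share of all genes that reach such a p with a slow gene is not given here. With group means removed, 17 of 20 stayed negative, and r was -0.76 for Casq2 with Casq1. The FPKM values of a library share its total, and the part of this in the negative values was not tested.

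**Figure D2:**
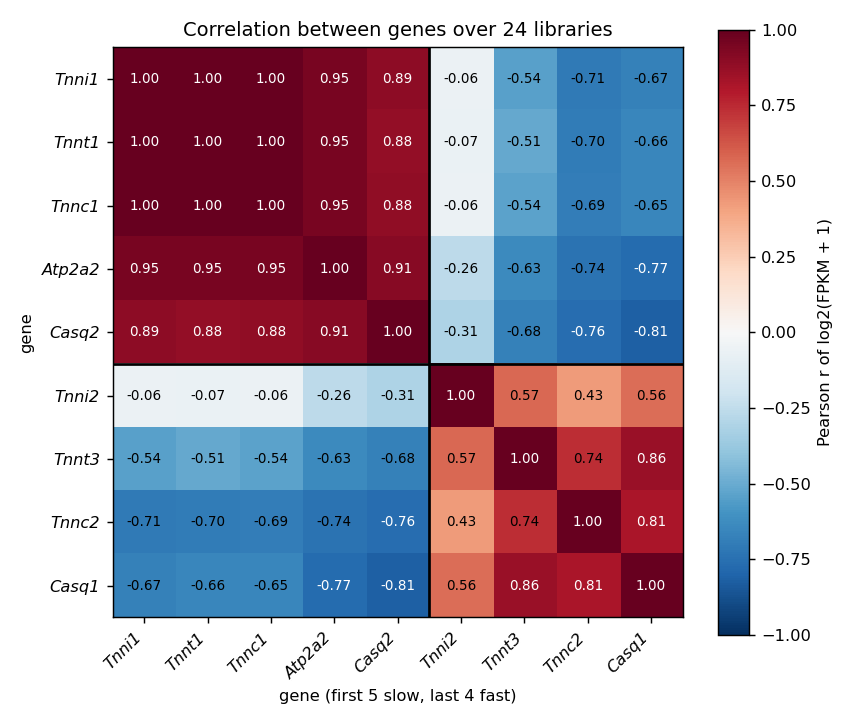
Pearson's r of log2(FPKM + 1) over 24 libraries for each pair of the 5 slow and 4 fast genes, with the value printed in each cell. The slow block holds r of 0.88 or more, the fast block is weaker, and every slow-fast cell is negative.

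No library had Tnni1 between 5.18 and 22.0 FPKM, which left 7 libraries below and 17 above. Among the 17, the slow pairs had r of 0.699 to 0.986 and all 20 slow-fast pairs were negative, from -0.86 to -0.39. Among the 7, the slow pairs ran from -0.24 to 0.97 and 9 of the 20 slow-fast pairs were negative. These are descriptions of libraries divided by a measured level, and no test was made between them.

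The slow troponins and the slow calcium genes differed at the low end. In the 7 libraries of low Tnni1 (0.373 to 5.18 FPKM), Tnnt1 was 0.248 to 7.40 FPKM and Tnnc1 0.367 to 6.32 FPKM, so all 3 slow troponins were below 10 FPKM in the same libraries. In those 7 libraries Atp2a2 stayed at 6.98 to 10.4 FPKM and Casq2 at 0.755 to 2.77 FPKM. Relative to Tnni1, which is then the denominator, Atp2a2 was 1.98 to 25.1 times as high there and 0.330 to 0.791 times as high in the other 17 libraries. For Tnnc1 the same ratio was 0.984 to 2.35 in the 7 and 0.963 to 1.95 in the 17. Atp2a2 also serves non-muscle cells through a longer splice form, which the table does not separate.

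**Figure D3:**
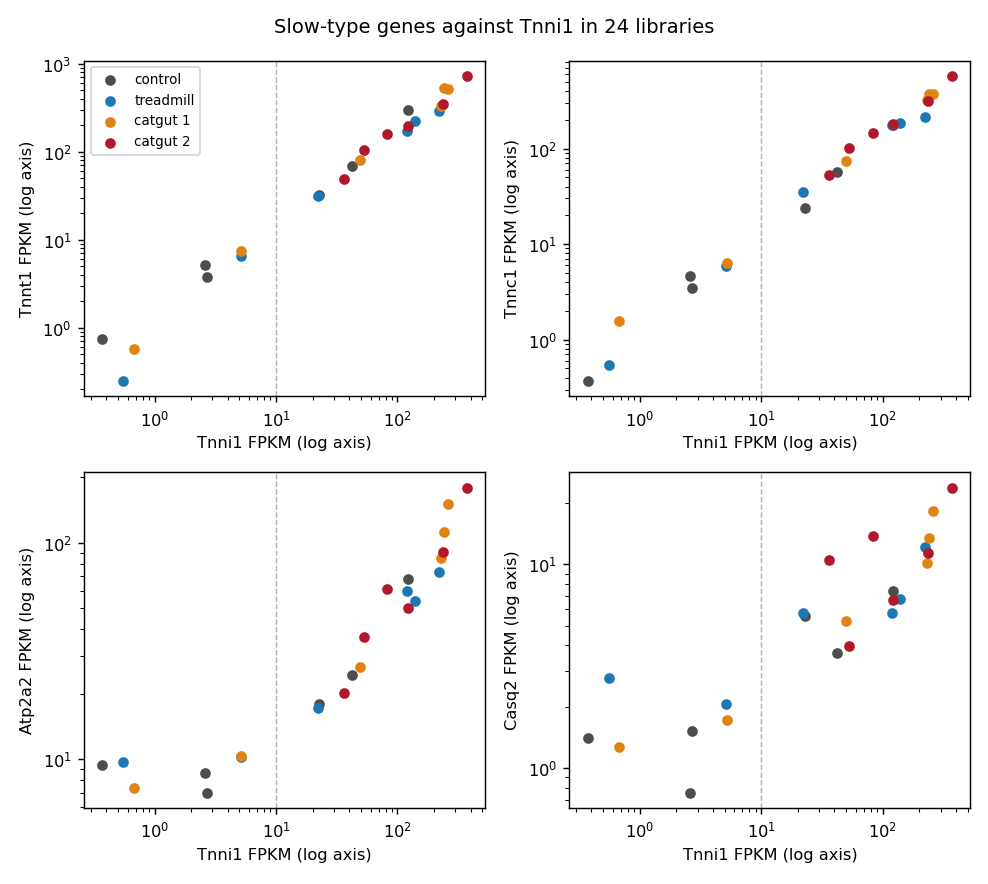
FPKM of Tnnt1, Tnnc1, Atp2a2 and Casq2 against FPKM of Tnni1 in 24 libraries, on log axes, coloured by group, with a dashed line at 10 FPKM of Tnni1. Tnnt1 and Tnnc1 follow Tnni1 over the whole range, while Atp2a2 levels off at 6.98 to 10.4 FPKM in the 7 libraries left of the line and Casq2 at 0.755 to 2.77 FPKM.

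The genes nearest to each member were taken by Pearson's r of log2(FPKM + 1) over the 24 libraries among 9288 genes with a symbol, and for each slow troponin the other slow troponins were among the nearest. Myh7, the myosin heavy chain of slow fibres, had r = 0.997 with Tnnt1, 0.997 with Tnnc1 and 0.995 with Tnni1. Atp2a2 was nearest to Myh6 (r = 0.985), Tpm3 (r = 0.984) and Ldhb (r = 0.956), the last being the heart-type subunit of lactate dehydrogenase. Casq2 was nearest to Sln (r = 0.935), which encodes the pump inhibitor sarcolipin, then Lmcd1 (r = 0.928) and Ldhb (r = 0.920). On the fast side, Tnnt3 was nearest to Actn3 (r = 0.920), the actinin of fast fibres, then Ubac1 (r = 0.909) and Mybpc2 (r = 0.904). Casq1 was nearest to Pvalb (r = 0.973), the calcium buffer parvalbumin of fast fibres, and Mybpc2 (r = 0.940) was also among its nearest. Tnni2 was nearest to Pgam2 (r = 0.822), Serinc2 (r = 0.775) and Myoz1 (r = 0.770), and Tnnc2 to Glo1 (r = 0.865), Cib2 (r = 0.859) and Pitpna (r = 0.859). These values describe shared variation over libraries that also share their depth and total.

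Treadmill against control asks what training and exhaustion did. Mean Tnni1 was 32.1 ± 47.0 FPKM (SD, n = 6) in the control group and 84.5 ± 89.7 in the treadmill group, mean Tnnt1 68.5 ± 116 and 121 ± 125, and mean Atp2a2 22.6 ± 23.2 and 37.2 ± 28.1. All 5 slow genes had a positive fitted log2 fold change, from 0.78 (Atp2a2) to 1.44 (Tnni1), with standard errors of 0.58 to 1.40. The 4 fast genes lay between -0.11 and 0.06. None of the 9 genes passed edgeR's quasi-likelihood test at a Benjamini-Hochberg adjusted p under 0.05 over 14772 genes (adjusted p 0.676 to 0.925), against 0.0542% of all genes, and 0 met the DEG criterion (mean FPKM at least 1.5-fold apart in either direction, together with an edgeR p under 0.05 before adjustment), against 2.85%. Without control replicate 2, 1 gene of the set met it, Atp2a2 (log2 fold change 1.55, unadjusted p = 0.0290), where 652 of 14772 genes did. By the two-sided exact permutation test of log2(FPKM + 1), 0 of 9 had a p under 0.05, against 7.39% of all genes, and the lowest was 0.162. The differences were within the rat-to-rat spread, and DESeq2, limma and every other fit listed under the alternatives called none of the 9 by adjusted p. In whole muscle, a difference in slow fibre number and one in these RNAs per fibre cannot be told apart, here and in what follows.

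Catgut group 1 against treadmill asks what embedding, with its anaesthesia and needling, added to training. The slow genes had log2 fold changes of 0.45 (Casq2) to 0.92 (Tnnt1) with standard errors of 0.62 to 1.36, and the fast genes -0.26 (Casq1) to -0.07 (Tnni2). No gene passed at an adjusted p under 0.05 (edgeR, 0.931 to 0.988), against 0.0474% of all genes, 0 met the DEG criterion, against 3.12%, and 0 had an exact permutation p under 0.05, against 5.67%.

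In catgut group 2 against treadmill the fast troponin T had the smallest p. Tnnt3 was 16550 ± 1899 FPKM in the treadmill group and 13335 ± 1938 in catgut group 2 (n = 6 each), a log2 fold change of -0.35 (SE 0.123, edgeR unadjusted p = 0.0136, adjusted p = 0.286). Of the catgut 2 libraries 4 were below every treadmill library, and the exact permutation p was 0.0152. The slow genes had log2 fold changes of 0.80 (Tnni1) to 1.11 (Tnnc1) and the other fast genes -0.39 (Casq1) to -0.16 (Tnnc2). Of the 9 genes 0 passed at an adjusted p under 0.05, against 0.237% of all genes, 1 had an unadjusted edgeR p under 0.05, against 10.7%, and 0 met the DEG criterion, against 3.76%. By exact permutation 1 of 9 had a p under 0.05, against 9.6%. Leaving out treadmill replicate 3 or catgut 2 replicate 4 brought 1 gene to the DEG criterion, and without treadmill replicate 3 it was Casq2 (log2 fold change 1.29, unadjusted p = 0.0193, adjusted p = 0.343).

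Catgut group 1 against control combined training and catgut. The slow genes had log2 fold changes of 1.29 (Casq2) to 2.07 (Tnnc1) with standard errors of 0.70 to 1.43, and the fast genes -0.37 (Casq1) to -0.01 (Tnni2). Of the 9 genes 0 passed at an adjusted p under 0.05 (edgeR, 0.551 to 0.984), against 0.0203% of all genes, and 0 met the DEG criterion, against 4.62%. Tnnt3 alone had an exact permutation p under 0.05 (p = 0.0325, 4 catgut 1 libraries below every control library), 1 of 9 against 7.65% of all genes. The count of 0 DEGs changed in several alternatives. Without control replicate 2, all 5 slow genes met the criterion, with Tnnt1 at a log2 fold change of 3.43 (unadjusted p = 0.0398, adjusted p = 0.453). In that fit 802 of 14772 genes met it. The count in the set was 2 without catgut 1 replicate 3 or replicate 6, 5 with the level of Y-linked genes as a covariate and 1 with the replicate number as a block. Of all 14772 genes, 774, 756, 650 and 528 met the criterion in those fits, in that order.

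The widest separation was that of catgut group 2 from the control group, with higher slow and lower fast genes. Casq2 was 3.38 ± 2.65 FPKM (SD, n = 6) in the control group and 11.7 ± 6.88 in catgut group 2, a log2 fold change of 1.78 (SE 0.577, edgeR unadjusted p = 0.00881, adjusted p = 0.166). Atp2a2 was 22.6 ± 23.2 FPKM and 72.9 ± 57.3, a log2 fold change of 1.71 (SE 0.663, unadjusted p = 0.0230, adjusted p = 0.224). These 2 slow calcium genes met the DEG criterion, 2 of 9 against 5.96% of all genes. Tnnt3 was 17725 ± 1517 FPKM and 13335 ± 1938, a log2 fold change of -0.42 (SE 0.119, unadjusted p = 0.00347, adjusted p = 0.124). Casq1 was 1672 ± 323 FPKM and 1203 ± 321, a log2 fold change of -0.50 (SE 0.180, unadjusted p = 0.0160, adjusted p = 0.194).

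Of the 9 genes 0 passed edgeR at an adjusted p under 0.05 in catgut group 2 against control, where 0.508% of all genes did, and 4 had an unadjusted edgeR p under 0.05, where 16.4% of all genes did. DESeq2 called 2 of the 9, Tnnt3 (adjusted p = 0.00862) and Casq2 (adjusted p = 0.0498), where it called 712 of 14772 genes. The slow troponins had larger differences and larger errors, with log2 fold changes of 2.25 (SE 1.11) for Tnni1, 1.96 (SE 1.17) for Tnnt1 and 2.37 (SE 1.12) for Tnnc1 and adjusted p-values of 0.338, 0.434 and 0.313. Tnnc2 was at -0.21 (SE 0.0990, adjusted p = 0.314) and Tnni2 at -0.12 (SE 0.119, adjusted p = 0.674).

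On the log scale, where the low libraries count fully, 8 of the 9 genes, all but Tnni2, had a two-sided exact permutation p under 0.05 in catgut group 2 against control, where 13.9% of all genes did. The p-values ran from 0.00649 for Tnnt3 to 0.154 for Tnni2, unadjusted over the 54 tests of 9 genes in 6 comparisons, and since the slow genes move together they are close to 1 observation rather than 5. For no gene were the groups fully separate. For Casq2, 4 catgut 2 libraries were above every control library, for Atp2a2 and Tnni1 2, and for Tnnt1 2. Median Tnni1 was 8.01 times as high in catgut group 2 as in the control group, median Tnnc1 11.5 times and median Casq2 4.21 times.

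Control replicate 2 weighed on this comparison. It was the control library with the most slow troponin, with 122 FPKM of Tnni1 and 299.6 of Tnnt1. Without it, all 5 slow genes met the DEG criterion against catgut group 2, with log2 fold changes of 3.44 (Tnni1), 3.58 (Tnnt1), 3.69 (Tnnc1), 2.48 (Atp2a2) and 2.18 (Casq2), still at adjusted p-values of 0.0801 to 0.160. In that fit 958 of 14772 genes met the criterion, and the 5 slow genes are close to 1 observation. Without catgut 2 replicate 6, the library with the highest level of all 5 slow genes, only 1 gene of the set met it, where 784 of 14772 genes did. Without control replicate 4, Tnnt3 passed edgeR (log2 fold change -0.50, adjusted p = 0.0464), where 87 of 14772 genes did. Of the adipocyte, erythroid, cardiac and liver markers, 0 passed at an adjusted p under 0.05 in this comparison, and their summed levels overlapped between the groups. By unadjusted edgeR p under 0.05, 3 erythroid rows (both of Hba-a2, and Hbb) were higher in catgut group 2, as was Fabp4 of the adipocyte list. Of the liver markers 4 were lower by it (Alb, Fgb, Ttr and Apoc3). Of the cardiac list only Myh6 was tested, at a log2 fold change of 2.28 (SE 1.23, edgeR unadjusted p = 0.0864). These 3 erythroid rows and 4 liver markers also met the DEG criterion. The summed adipocyte markers (5 listed) were 345 to 629.8 FPKM in the control group and 451 to 676 in catgut group 2, although 4 of the 5 had a negative fitted log2 fold change. The summed erythroid markers (4 rows) were 309 to 577 and 327 to 1864 FPKM, and the cardiac list 0.00980 to 11.8 and 2.32 to 34.1 FPKM, with Tnni3 at 0 in 6 control and 4 catgut 2 libraries. Summed liver markers (5 listed) had medians of 0.466 FPKM in the control group and 0.462 in catgut group 2, with a highest value of 181 in the control group and 0.725 in catgut group 2. Their part in the result was not tested.

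Catgut group 2 against catgut group 1 asks what the added point Fei Shu did. The slow genes had log2 fold changes of 0.16 (Tnnt1) to 0.49 (Casq2) with standard errors of 0.61 to 1.09, and the fast genes -0.18 (Tnnt3) to -0.08 (Tnnc2). Of the 9 genes 0 passed at an adjusted p under 0.05 (edgeR), against 0.00677% of all genes, 0 met the DEG criterion, against 1.25%, and 0 had an exact permutation p under 0.05, against 3.2%. The direction of 4 slow genes changed when single libraries were left out. Without catgut 2 replicate 6, the log2 fold change was -0.26 for Tnni1, -0.48 for Tnnt1, -0.23 for Tnnc1 and -0.32 for Atp2a2. Without catgut 1 replicate 3 it was -0.09 for Tnnt1 and -0.03 for Atp2a2, without catgut 1 replicate 4 -0.0069 for Tnnt1, and without catgut 1 replicate 6 -0.0055 for Tnni1, -0.10 for Tnnt1 and -0.04 for Atp2a2. A difference between the catgut groups was not detectable with these errors.

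Ordered by mean FPKM, all 5 slow genes ran control, treadmill, catgut group 1, catgut group 2, and Tnnt3, Tnnc2 and Casq1 ran the reverse. No neighbours in that order differed beyond their spread in the tests above, and by medians the order of the catgut groups turned for Tnni1, Tnnt1, Tnnc1 and Atp2a2. The comparisons share groups, so their directions are not independent of each other. The median fitted log2 fold change over all genes was within 0.012 of 0 in each comparison.

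**Figure D4:**
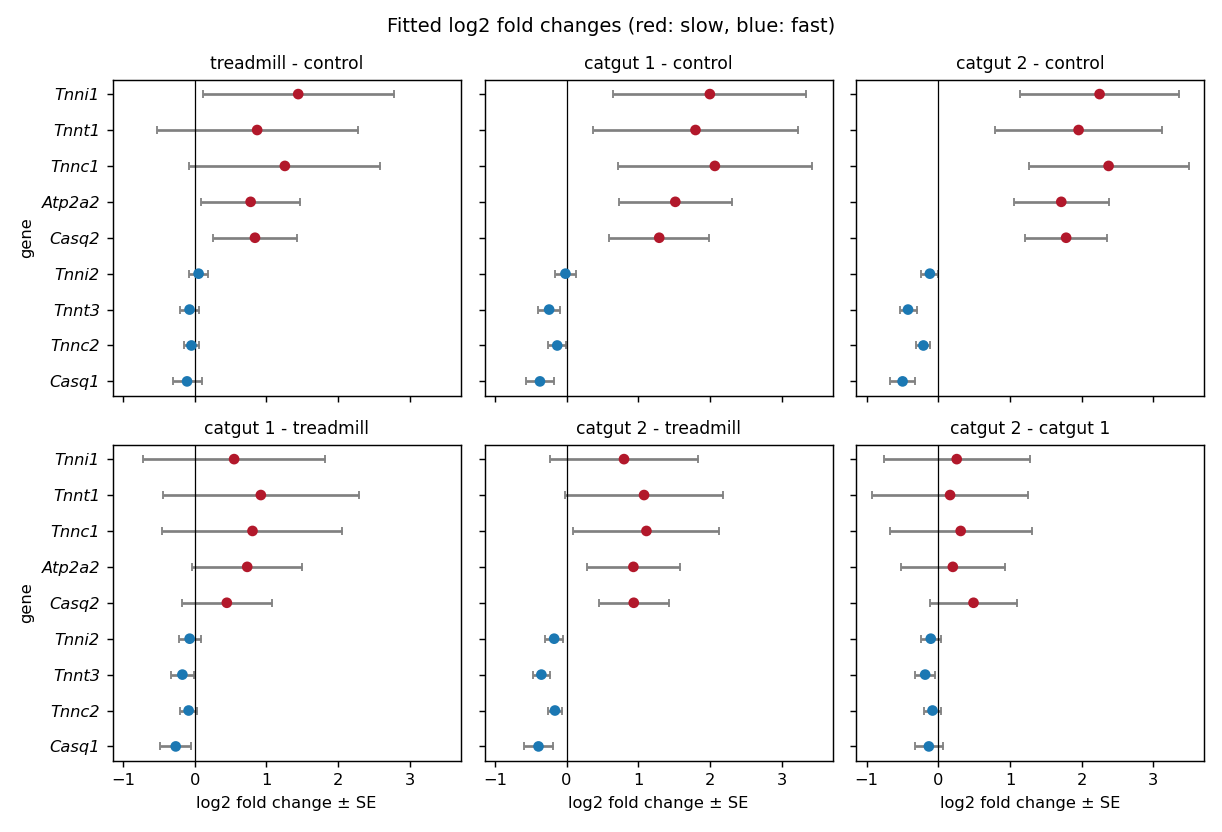
Fitted log2 fold changes (edgeR, points) with 1 standard error (bars) of 5 slow (red) and 4 fast (blue) genes in the 6 comparisons, the first group minus the second. Slow genes lie right of 0 in every panel and fast genes left of it, except Tnni2 in treadmill against control (0.06), with errors of the slow troponins of 0.99 to 1.43 against 0.09 to 0.16 for the fast troponins.

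The ratio of slow to fast form within a library removes the library total. In troponin I, Tnni1 made up 0.0116 to 3.56% of the FPKM of the pair in the control group with a median of 0.342%, 0.0168 to 5.82% in the treadmill group with a median of 1.70%, 0.0192 to 7.86% in catgut group 1 with a median of 3.51%, and 1.05 to 10.8% in catgut group 2 with a median of 2.77%. Even in the library with the most, the fast form made up most of the troponin I RNA. The slow share reached 5.71% in troponin T, 5.83% in troponin C and 2.67% in calsequestrin, and 1.60% in the calcium pump when ENSRNOG00000047124 stands for the fast form.

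Against the control group, the mean log2 ratio in catgut group 2 was higher by 3.84 in troponin I (-8.79 ± 3.06 in control, -4.95 ± 1.31 in catgut group 2, SD, n = 6, two-sided exact permutation p = 0.0195), 4.08 in troponin T (exact p = 0.0195), 4.22 in troponin C (exact p = 0.0130), 2.50 in calsequestrin (exact p = 0.0152) and 1.92 in the calcium pump (exact p = 0.0238). In troponin I, 5 of 6 control libraries were below every catgut 2 library. These 5 were the only tests with a p under 0.05 among 30 (5 pairs in 6 comparisons, unadjusted), where the smallest possible p is 0.00216. Treadmill against control differed by 1.57 in troponin I (exact p = 0.374) and catgut group 2 against treadmill by 2.27 (exact p = 0.160). With single libraries left out, the first ranged from 0.714 (without control replicate 4) to 2.63 (without treadmill replicate 2) and the second from 1.21 (without treadmill replicate 2) to 2.92 (without treadmill replicate 3). The 5 ratios are nearly the same measurement, since their slow forms move together, and they largely repeat the single-gene tests of those forms. Mean log2 FPKM of Tnni1 was 3.04 in the control group and 6.77 in catgut group 2, and that of Tnni2 11.8 and 11.7.

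**Figure D5:**
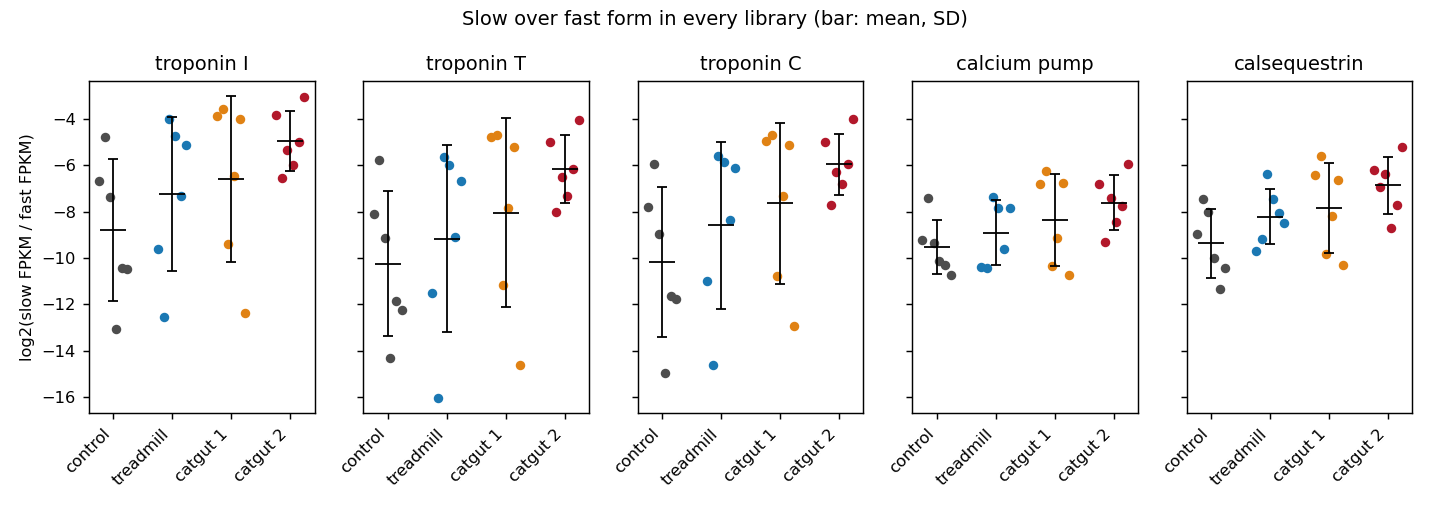
Log2 of slow over fast FPKM in each library for 5 pairs of genes, by group, with the mean and SD of the group as a bar and whisker (n = 6). The calcium pump panel uses ENSRNOG00000047124 for the fast form. Catgut group 2 lacks the low libraries seen in the other groups, and its mean is the highest in each panel.

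Other genes of the same fibre programmes were read from lists of known genes, chosen with earlier results of these data in view. Of 11 listed and tested slow fibre genes outside the set, 0 passed at an adjusted p under 0.05 in any comparison. In catgut group 2 against control all 11 were positive, with a median log2 fold change of 1.85 against -0.0050 over all genes, among them Myh7 at 2.12 (SE 1.21, edgeR adjusted p = 0.409) and Smpx at 0.79 (SE 0.261, adjusted p = 0.171). Of 10 fast fibre genes 0 passed and 0 were positive there, with a median of -0.45, among them Myh1, the fast myosin of type IIx fibres, at -0.51 (SE 0.140, adjusted p = 0.122) and Actn3 at -0.57 (SE 0.182, adjusted p = 0.163). The thin filament list had 0 of 11 genes past the threshold in any comparison. Its tropomyosins differed in sign, Tpm3 of slow fibres at 1.71 (adjusted p = 0.218) and Tpm1 at -0.76 (adjusted p = 0.0784).

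In the list of sarcoplasmic reticulum calcium handling, 1 of 14 genes passed in catgut group 2 against control, where 0.508% of all genes did, and 0 of 14 in each of the other comparisons. Jph2, a junctophilin that holds the reticulum to the transverse tubule, fell by 0.69 on the log2 scale (SE 0.125, edgeR adjusted p = 0.0392). With the replicate number as a block, 0 of 14772 genes passed in this comparison, Jph2 included. The release channel Ryr1 was at -0.28 (SE 0.0873, adjusted p = 0.154), the pump inhibitor Pln at 0.57 (SE 0.232, adjusted p = 0.244) and Sln at 2.33 (SE 1.22, adjusted p = 0.362). The pump Atp2a3 of non-muscle cells was at 0.18 (SE 0.159, adjusted p = 0.625) and its level was 2.33 to 5.52 FPKM over all libraries. Of 11 listed genes of calcineurin and NFAT signalling, which is known to drive slow fibre genes, 0 passed in any comparison. The activity of this signalling was not measured. In catgut group 2 against control the 11 ran from -0.51 to 0.32, with a median of -0.13 and 4 positive. Mef2c was at -0.46 (SE 0.145, edgeR adjusted p = 0.155) and Nfatc2 at 0.32 (SE 0.166, adjusted p = 0.357).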

How the data were processed

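Poly(A) RNA of 24 rat quadriceps samples was sequenced, and the authors deposited 1 table with FPKM values and whole-number counts for 21067 genes in each library. Per the labels, HISAT2 2.0 and StringTie 1.3.0 appear in the submitters' processing notes. The genome build and the counting step are not given in the sources used here. Groups and replicate numbers came from the labels, and p-values measure the spread between these rats. The labels name no batch.

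Deposited counts were scaled by TMM and tested with edgeR 4.0.16 (quasi-likelihood, two-sided) in R 4.3.3 over 14772 genes with a mean of at least 0.1 FPKM, with the 2 groups of each comparison fitted alone and Benjamini-Hochberg adjustment over all of them. Each standard error is the log2 fold change over the root of its F value. Ratios and single genes were tested by exact permutation of 924 arrangements of 12 libraries. Correlations used 100000 permutations. The edgeR, DESeq2 and limma fits were tested on simulated counts of treadmill against control, and the other steps were not. The deposited annotation columns served only to place ENSRNOG00000047124. Promoter windows came from RefSeq.

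All 10 genes were named. Full statistics were given for pairs of gene and comparison with an unadjusted p under 0.05, and the 3 genes with the highest correlation were named for each, except 1 that is not reported here. The members, lists and tests were chosen with earlier results of these data known. Alternatives were no filter, a mean FPKM of at least 1, RLE scaling, the replicate number as a block, a Y-linked covariate, DESeq2 1.42.0, limma 3.58.1 on log2(FPKM + 1) or log2(FPKM + 0.1), 1 fit over 4 groups, a pseudocount of 1 in the ratios, and each library left out. Leaving out control replicate 2 and treadmill replicate 3 together, and ENSRNOG00000047124 for Atp2a1, were added after seeing the data. Intervals and ranges cover these libraries only. Figures were drawn with matplotlib 3.10.9.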

Additional observations from a re-analysis of the deposited data

Results flagged for a closer look

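In the control group, 1 library lay far above the other 5 in FPKM for 4 of the slow genes, by Dixon's test at the 95% level. The test used FPKM and not the log scale of the correlations and ratios, so it says nothing of that scale. Log2 of Tnni1 over Tnni2 was -4.76 in this library, -6.65 in control replicate 1 and -13.07 in control replicate 4. Control replicate 2 had 122.2 FPKM of Tnni1 against a group median of 12.7, 299.6 of Tnnt1 against 18.7, 177.0 of Tnnc1 against 14.3 and 67.9 of Atp2a2 against 13.7. Of 56 groups of values examined, 4 were marked, all from this library, and chance alone marks about 1 in 20 groups. Since the slow genes move together, the 4 are close to 1 observation. The same library held 135 FPKM of Alb, while its Tnni1 was within the range of the treadmill, catgut 1 and catgut 2 groups.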

How the results depend on the processing

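The fold changes given with full statistics kept their direction in every fit run, while Tnni2 turned in 3 comparisons and Tnnc2 in 1 (treadmill against control) with single libraries left out, as did the slow genes of catgut group 2 against catgut group 1 named above. Of the set, 0 genes passed an adjusted p under 0.05 except in catgut group 2 against control, with DESeq2 (2 genes, against 712 of all 14772) and without 1 control library (1 gene, against 87 of all 14772, range 0 to 1 over the libraries left out). The number meeting the DEG criterion there was 2. It was 3 with no filter, 5 with the replicate block, 5 with the Y-linked covariate, 4 with DESeq2, 5 with limma at either pseudocount and 1 to 5 over the libraries left out. Over all genes it was 880 of 14772, and 1344 of 20177 with no filter. Of 14772 genes it was 759 with the replicate block, 822 with the Y-linked covariate and 872 with DESeq2. With limma it was 845 and 869, and over the libraries left out 753 to 1101. In catgut group 1 against control the number in the set was 0, and 1 with the replicate block, 5 with the Y-linked covariate and 0 to 5 over the libraries left out (577 to 802 of all 14772 genes). It ranged from 0 to 1 in treadmill against control and from 0 to 1 in catgut group 2 against treadmill, and was 0 throughout in the remaining comparisons. The causes were not tested.

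With the replicate block, the 5 catgut 2 against control ratios kept their size. They were 3.84 in troponin I, 4.08 in troponin T, 4.22 in troponin C, 2.50 in calsequestrin and 1.92 in the calcium pump. Exact p-values were 0.0625 in each troponin, 0.0313 in calsequestrin and 0.0938 in the calcium pump, where the smallest possible p is 0.0313. The labels give no pairing by replicate number. Correlations of deviations between same-numbered libraries ran from -0.49 to 0.28, which does not settle whether the numbers pair the samples. With single libraries left out, catgut group 1 against treadmill reversed in 4 ratios, within -0.44 to 1.77 in troponin I, -0.27 to 2.42 in troponin T, -0.24 to 2.02 in troponin C (without treadmill replicate 2) and -0.068 to 0.88 in calsequestrin (without catgut 1 replicate 2), and catgut group 2 against treadmill ranged over 1.61 to 3.69 in troponin T (exact p 0.0498 to 0.227) and 1.01 to 1.72 in calsequestrin (exact p 0.0346 to 0.171). Leaving out control replicate 2 and treadmill replicate 3 together, chosen after seeing the data, left 0 genes called in treadmill against control.

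The slow troponins were near the limit of counting in the lowest libraries, where 1 held 16 counts of Tnnt1. With 6 rats a group and errors of about 1 log2 unit, moderate differences of the slow troponins could not be detected. Sex and the place of the cut in the muscle were not in the labels.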

Other observations

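The cardiac troponin T gene Tnnt2, which is also used by immature skeletal muscle, had medians of 0.397 FPKM in control, 0.343 in treadmill, 0.171 in catgut 1 and 0.720 in catgut 2 libraries, and its highest library, in catgut group 2, was at 4.56 FPKM. Myl2, the slow and ventricular myosin light chain, was listed at 0 in 4 control, 2 treadmill, 2 catgut 1 and 0 catgut 2 libraries. Myoglobin (Mb), the oxygen store of oxidative fibres, had a log2 fold change of 0.91 in catgut group 2 against control (SE 0.255, edgeR adjusted p = 0.124), with medians of 5945 FPKM in the control group and 9636 in catgut group 2.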
